A study of Mus musculus with 23 samples.

Results

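CA2 pyramidal cells form a small field of the hippocampus, wedged between CA3 and CA1. The CA2 marker genes described here are Cacng5, Rgs14, Pcp4, Necab2, Vit, Sostdc1 and Amigo2. They were picked because, as a group, they had been seen to be higher in UBB+1 tg mice than in wild-type mice in these same samples, so that every difference between the genotypes given for them is a description and carries no test. All 7 genes had at least 1 probe set annotated to them alone, and the 10 such probe sets were read among 18192 genes with a probe set of their own. On the MOE430A array 6 genes were measured, and Amigo2 on the MOE430B array.

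CA2 neurons are known for synapses in the stratum radiatum that resist long-term potentiation, for a tight control of calcium and of G protein signalling, and for a role in social memory. Several of the genes named above encode proteins of these functions. The genes are used as markers of CA2 but are not restricted to it. The tissue had been cut as CA3, the neighbouring field, and CA2 cut on its own was not analysed here.

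UBB+1 tg mice carry a transgene for UBB+1, a frameshifted ubiquitin B with an extended C terminus that inhibits the proteasome, under the CaMK2α promoter, which is active mainly in forebrain excitatory neurons. The mice were heterozygous, of a single transgenic line kept on C57BL/6J, and the wild-type mice were littermates without the transgene. All were 18 months old. From laser-cut CA3 of each mouse, 5 ng of RNA were amplified in 2 rounds, and 6 UBB+1 tg and 5 wild-type mice were measured on MOE430A, and the same mice with 1 more wild-type mouse on MOE430B.

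Values are RMA intensities on the log2 scale, on which a difference of 1 is a doubling, and they are compared only within a probe set. The study's methods set aside 1 probe set because it reads a transcribed stretch of the transgene promoter. On MOE430A it lay between 8.45 and 9.34 in UBB+1 tg mice and between 6.41 and 6.85 in wild-type mice, so that the genotypes there were those of the labels. It has no value on MOE430B, so that the arrays of that type, and the additional wild-type mouse, were not checked in this way. Each mouse is named by its genotype and number, and values are given in the order tg270, tg271, tg273, tg274, tg276 and tg277, then wt287, wt289, wt290, wt291, wt321 and, on MOE430B, wt331. Clustering of all probe sets, with the number of sets fixed at 3, split the arrays into sets that crossed the genotypes. They differed in the 3'-5' difference, the excess of signal at the 3' end over the 5' end of the Gapdh and Actb control transcripts. The sets were named low, middle and high by this difference. On MOE430A it was 2.65 to 3.43 in the low array set (mice tg271, wt287 and wt290), 4.44 to 4.62 in the middle array set (tg273, tg274, tg276, tg277, wt291 and wt321) and 6.05 to 6.10 in the high array set (tg270 and wt289). The additional wild-type mouse on MOE430B, wt331, fell in the middle array set. The labels give no batch that these sets could be matched to. In bulk tissue, fewer cells of a type and less RNA per cell cannot be told apart.

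Of 8 CA3 markers, 7 lay above the 25th percentile of their array in mean level. The brightest were Nptx1, Bok and Dkk3, named here after their values were seen, above 97.1%, 96.9% and 95.8% of the MOE430A probe sets, and Coch was the dimmest, above 16.8%. CA2 genes were represented as well, with such ranks only a rough guide because probe sets differ in affinity. The mean level of Necab2 exceeded that of 89.1% of the MOE430A probe sets, that of Pcp4 85.5% and that of Rgs14 83.8%. Cacng5 and Sostdc1 were intermediate, above 66.2% and 53.1%, and Vit was dim, above 21.7%. Amigo2 lay above 60.9% of the MOE430B probe sets.

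Cacng5 was the gene for which the genotypes lay apart. It encodes the AMPA receptor auxiliary subunit gamma-5, a transmembrane protein that tunes receptor gating, and is transcribed from chr11:107874604-107915055 (GRCm38.p6). By probe set 1434785_at, the 6 UBB+1 tg mice were at 7.82, 7.29, 7.31, 8.12, 7.16 and 7.38. The 5 wild-type mice were at 7.12, 7.04, 6.92, 6.23 and 6.69. The highest wild-type mouse thus lay just under the lowest UBB+1 tg mouse, a gap far smaller than the spread within either genotype. The means were 7.51 ± 0.37 (SD, n = 6) and 6.80 ± 0.36 (SD, n = 5), and the log2 difference was 0.71 (standard error 0.21), or 1.64-fold. Every UBB+1 tg mouse lay above every wild-type mouse for Cacng5 alone of the 7 genes, and for 0.132% of all genes. The rule had used this contrast, and nothing is read from the count. Its other probe set, 1426330_at, which was dimmer, did not separate the genotypes, with a difference of 0.12 (standard error 0.10). By the brighter probe set, the difference was 0.27 in the low, 1.04 in the middle and 0.78 in the high array set.

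The RefSeq window of 250 bases upstream of the 5′-most start of Cacng5 (chr11:107915056-107915305, minus strand, GRCm38.p6) is shown because this was the gene with separate genotypes. Capitals mark E boxes, the letters CANNTG bound by basic helix-loop-helix factors.
Cacng5: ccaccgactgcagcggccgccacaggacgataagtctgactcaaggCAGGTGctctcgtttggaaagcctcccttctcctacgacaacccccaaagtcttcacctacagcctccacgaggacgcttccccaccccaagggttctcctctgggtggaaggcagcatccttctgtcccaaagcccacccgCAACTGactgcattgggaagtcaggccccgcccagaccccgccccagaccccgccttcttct
The window holds 2 E boxes and 2 GC boxes, a motif spelled GGGCGG, and its GC content was 62%, against a median of 52.4% over 32851 such windows. An E box was found in 66.2% of all windows and a GC box in 32.7%, both strands read. The window of a second start held 1 E box and no GC box.

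Rgs14 encodes a scaffold of G protein and Ras signalling that limits potentiation at CA2 synapses, from chr13:55369732-55384687. The 6 UBB+1 tg mice were at 8.58, 9.64, 8.62, 8.56, 8.19 and 8.36, and the 5 wild-type mice at 8.96, 8.22, 8.89, 8.0 and 7.89 (probe set 1419221_a_at). The genotypes overlapped, with the wild-type mice of the low array set above every UBB+1 tg mouse but tg271. The log2 difference was 0.27 (standard error 0.28). Within each array set, however, every UBB+1 tg mouse lay above every wild-type mouse. The difference was 0.72 in the low array set (1 UBB+1 tg and 2 wild-type mice), 0.48 in the middle (4 and 2) and 0.36 in the high (1 and 1). Among the 6 genes of MOE430A this separation within array sets held for Rgs14 and Cacng5, and it held for 1.73% of the genes of that array. The rule had used the contrast between the genotypes, and nothing is read from this count. Blocked by array set, the difference was 0.52 (standard error 0.10). Without the block, the size of the difference of 0.27 did not hold. It was 0.07 without mouse tg271 and 0.02 with array weights (arrays of larger residual spread count less). The blocked fit was not repeated with a mouse left out or with array weights.

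Pcp4 encodes a small calmodulin-binding protein, also known as PEP-19, from chr16:96467606-96525793, and was the most variable of the genes. The 6 UBB+1 tg mice were at 10.50, 10.73, 8.33, 8.78, 7.42 and 7.63, and the 5 wild-type mice at 9.18, 8.92, 8.84, 8.27 and 7.64. The highest and the lowest mouse were both UBB+1 tg, and 3 of 6 UBB+1 tg mice lay above the wild-type mean. The log2 difference was 0.33 with a standard error of 0.62. It was 1.72 and 1.58 in the low and high array sets, which hold 1 UBB+1 tg mouse each, and 0.08 in the middle array set. Without mouse tg271 it was -0.04, and with array weights, which give arrays of larger residual spread less weight, -0.29, so that its direction did not hold.

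Necab2, a neuronal calcium-binding protein that associates with metabotropic glutamate and adenosine receptors, is encoded at chr8:119446719-119472640. The 6 UBB+1 tg mice were at 9.44, 10.29, 9.53, 9.21, 8.50 and 8.58, and the 5 wild-type mice at 9.57, 9.49, 9.43, 9.09 and 8.20. The genotypes overlapped over most of their range. The log2 difference was 0.10 (standard error 0.34), and it was -0.10 without mouse tg271, -0.14 without mouse wt321 and -0.19 with array weights.

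Vit encodes vitrin, a protein of the extracellular matrix, from chr17:78508051-78627409. The 6 UBB+1 tg mice were at 4.91, 5.55, 5.0, 5.32, 4.81 and 5.43, and the 5 wild-type mice at 5.0, 4.32, 5.04, 4.95 and 4.32. All 6 UBB+1 tg mice lay above the wild-type mean, but 3 of the wild-type mice lay within the range of the UBB+1 tg mice. The log2 difference was 0.44 (standard error 0.19), and in the array sets it was 0.53, 0.50 and 0.58. These levels are close to the lower end of the array. With values under the 25th percentile set to it, the difference fell to 0.15.

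Sostdc1 encodes a secreted antagonist of BMP and Wnt signals, from chr12:36314169-36318452, and is also expressed in the choroid plexus. By probe set 1449340_at, the 6 UBB+1 tg mice were at 6.92, 7.24, 6.02, 6.94, 6.43 and 6.57, and the 5 wild-type mice at 6.29, 6.48, 6.23, 6.13 and 6.29. The wild-type mice lay close together (SD 0.13) and the UBB+1 tg mice on both sides of them (SD 0.44), with 5 of 6 above the wild-type mean. The log2 difference was 0.41 (standard error 0.19), and 0.15 (standard error 0.29) by the dimmer probe set 1460250_at.

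Amigo2 encodes a leucine-rich repeat adhesion protein, from chr15:97244074-97247287, and was the only one of the genes with a difference below 0. By probe set 1447769_x_at, the 6 UBB+1 tg mice were at 5.88, 5.42, 5.95, 5.94, 6.03 and 6.02, and the 6 wild-type mice at 5.81, 5.94, 6.00, 5.97, 6.03 and 5.91. All mice but mouse tg271 lay within a narrow band. The log2 difference was -0.07 (standard error 0.10), and it was 0.02 without that mouse. The suffix of the probe set marks probes that may also bind other transcripts. By its other probe set, 1434601_at, which has no such suffix, the difference was 0.09 (standard error 0.18).

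**Figure D1:**
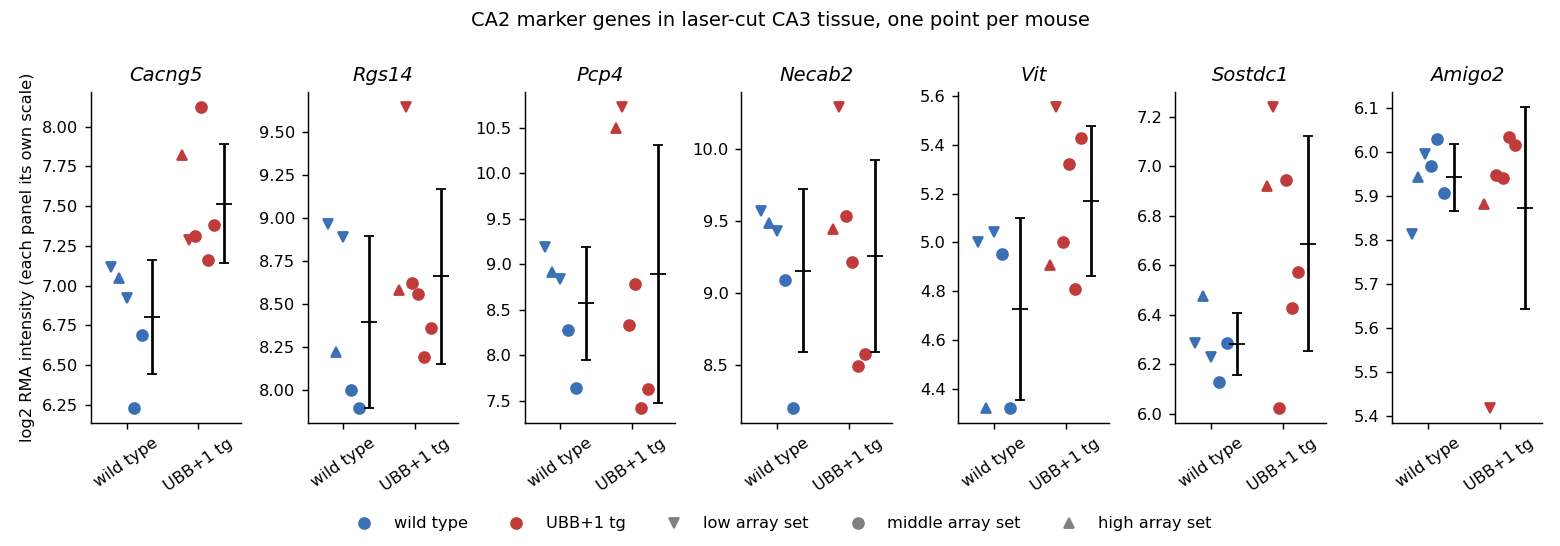
Log2 RMA intensity (vertical axis, its own scale in each panel) of the 7 CA2 genes in each mouse, with blue wild-type and red UBB+1 tg mice, the marker shape giving the array set, and bars the mean ± SD. Cacng5 alone has its genotypes apart, and mouse tg271 (red, pointing down) is highest for Rgs14, Pcp4, Necab2, Vit and Sostdc1 and lowest for Amigo2.

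As a group, 6 of the 7 genes had a difference above 0, against 50.1% of all genes, and their median log2 difference was 0.33, against 0.00 over all genes. Because the genes were picked on this contrast, the counts restate the choice. At a false discovery rate of 10%, limma called 0% of the probe sets of either array type, with 432 higher (1.91%) and 356 lower (1.57%) at an unadjusted p under 0.05 on MOE430A, and 342 (1.52%) and 345 (1.53%) on MOE430B. With array set as block, all genes but Amigo2 had larger differences, of 0.37 to 0.82, and the median was 0.52. Without the block, the size of the median depended on single mice. From 0.33 with all mice it fell to 0.07 without mouse tg271 and 0.14 without mouse wt321. With array weights and no block it was 0.02, and 4 of 7 genes were above 0. The block was not combined with leaving out a mouse or with array weights.

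**Figure D2:**
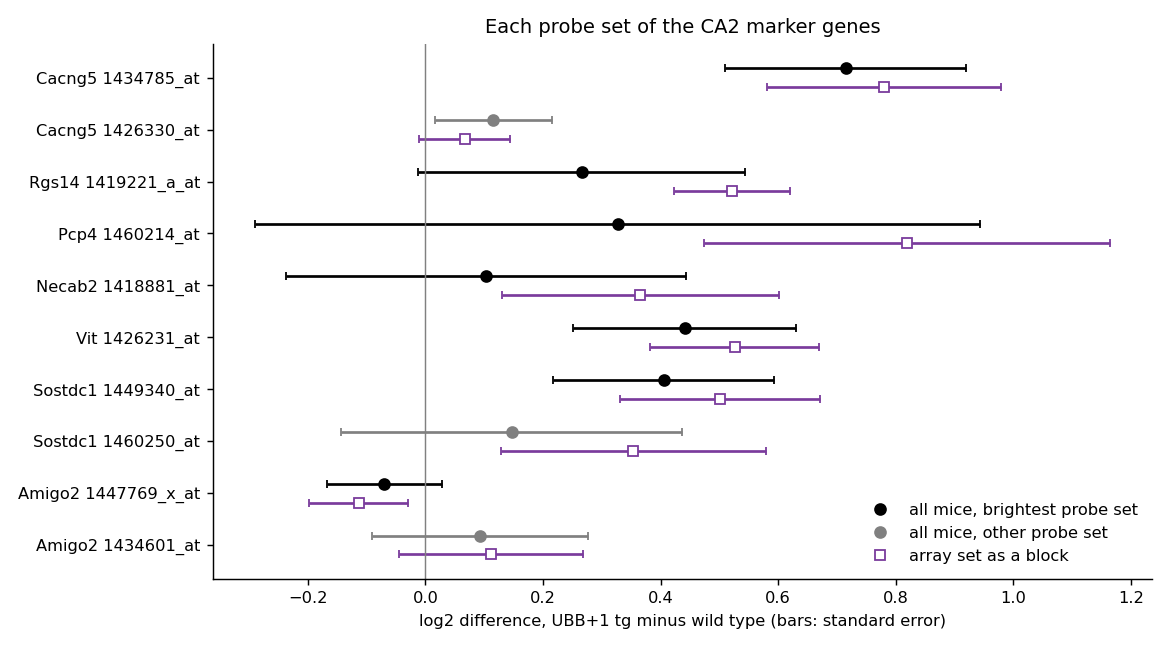
Log2 difference, UBB+1 tg minus wild type, for each of the 10 probe sets (horizontal axis, bars the standard error), with filled points from all mice and open squares with array set as block. Black points are the probe sets that represent the genes, grey points the others, and the standard error of Pcp4 narrows from 0.62 to 0.34 with the block.

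Other genes known from CA2 were divided in direction with all mice. Of 9 such genes listed, 6 had a probe set of their own, and 3 were higher and 3 lower, with a median log2 difference of 0.00. Nr3c2, the mineralocorticoid receptor that CA2 neurons need for their identity, was at 0.36 (standard error 0.13, MOE430B). Acan, the core protein of perineuronal nets, was at 0.22 (standard error 0.15), and Ptpn5, the phosphatase STEP, at -0.03 (standard error 0.29). The vasopressin receptor Avpr1b was at 0.02, the growth factor Fgf2 at -0.03 and the oxytocin receptor Oxtr at -0.06. Fgf2 was dim, above only 3.18% of the MOE430A probe sets. Blocked by array set, 5 of the 6 were above 0, with a median of 0.12, against 0.01 over all genes. Nr3c2 was then at 0.33, Acan at 0.29 and Ptpn5 at 0.24, but Avpr1b and Oxtr were at 0.01 and Fgf2 at -0.03. The share of all genes above 0 under the block was not counted. Without the block, limma, adjusted within each array type, called none of the 6 at a rate of 10%. Nr3c2 alone had an unadjusted p under 0.05.

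Markers of the other cells the cut could hold overlapped between the genotypes. The summed level of a list, the log2 of the sum of the linear intensities of its MOE430A genes, was 12.6 to 12.9 in UBB+1 tg and 12.6 to 12.8 in wild-type mice for CA3 markers, and 6 of 8 CA3 genes were higher, with a median of 0.10 (Iyd at 0.41, Kcnq5 at 0.28). For CA1, 6 of 8 were higher, with a median of 0.06 (Gpr161 at 0.33, Man1a at 0.25), and for dentate granule cells 5 of 8, with a median of 0.03 (Lct at -0.41, Sema5a at 0.18). General neuron markers had a median of 0.32, close to that of the CA2 genes, with 5 of 6 higher (Stmn2 at 0.40, Syt1 at 0.39), and a median of 0.08 with array set as block. Under the same block the CA3 median was -0.01, with Iyd at 0.06 but Kcnq5 at 0.20. Stmn2 and Syt1 were then at 0.06 and -0.03. Snap25, a neuron marker named here after its values were seen, was at 0.41 (0.37 with all mice). The neuron markers' summed level was 13.7 to 14.3 in UBB+1 tg and 13.4 to 14.1 in wild-type mice. The part of these lists in the differences of the CA2 genes was not tested.

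For choroid plexus markers, given beside Sostdc1, 6 of 8 genes were higher, with a median of 0.04, Cldn2 at 0.27 and Ttr at -0.14 (0.05 when blocked by array set). Their summed level was 8.57 to 9.33 in UBB+1 tg and 8.61 to 9.08 in wild-type mice, and 2 of the 8 genes were below the 25th percentile of their array. For meningeal and perivascular markers, given beside Vit, 6 of 9 were higher, with a median of 0.04 (Aldh1a2 at 0.18, Slc6a13 at 0.13), a summed level of 8.85 to 9.13 against 8.87 to 9.06, and 4 of 9 below that percentile.

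Among the remaining lists, interneuron genes had a median of 0.02 with 5 of 9 higher, although Sst and Npy, the neuropeptides somatostatin and neuropeptide Y, were at -0.82 and -0.46 (-0.46 and -0.19 when blocked by array set). Astrocyte genes were at 0.03 with 3 of 6 higher (Aqp4 at 0.42, Aldh1l1 at -0.19), and oligodendrocyte genes at 0.21 with 5 of 5 higher (Mal at 0.58, Mobp at 0.33). Microglia genes were at -0.12 with 2 of 6 higher (C1qa at -0.43, C1qc at -0.30), and endothelial genes at -0.07 with 2 of 5 higher (Slco1a4 at 0.31, Cldn5 at -0.26). At a false discovery rate of 10%, limma called none of these marker genes.

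**Figure D3:**
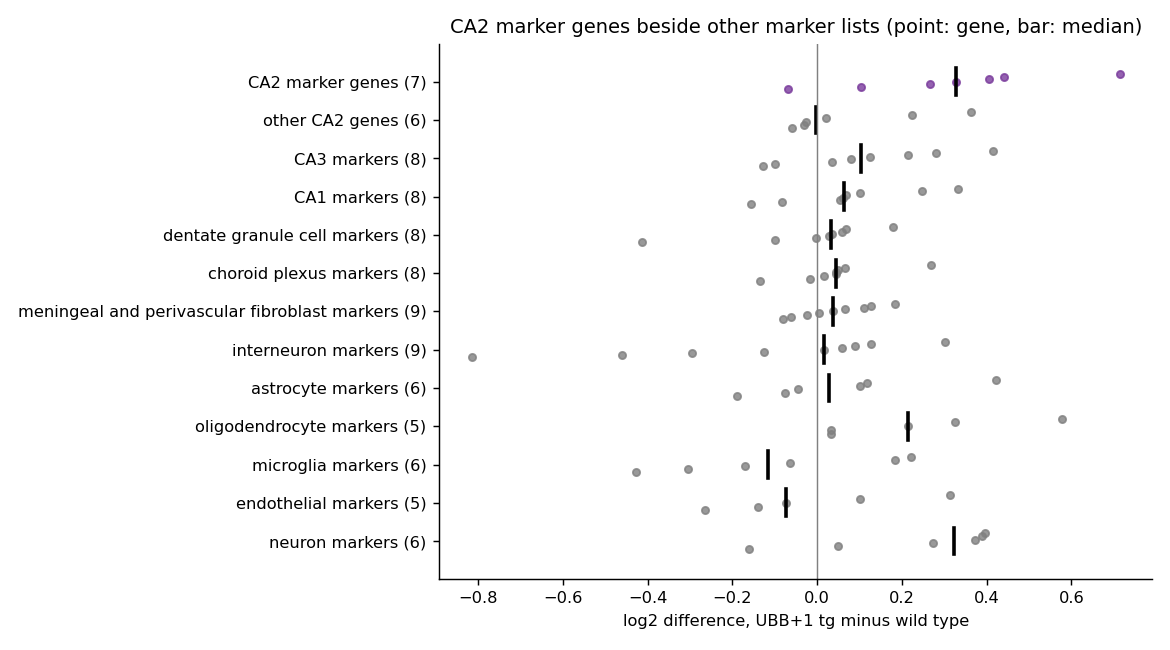
Log2 difference, UBB+1 tg minus wild type, of each gene (point) in the CA2 genes and in 12 marker lists, with the number of measured genes in parentheses and a bar at the median. The CA2 genes have a median of 0.33 and were chosen for it, and the neuron markers have 0.32.

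How the genes varied between mice of the same genotype had not been used to choose them. The spread within genotypes was wide for Pcp4, Necab2 and Rgs14 and narrow for Amigo2. The SD of Pcp4 was 1.13, larger than that of 99.5% of the MOE430A genes, that of Necab2 0.62 (94.5%) and that of Rgs14 0.51 (88.9%). Cacng5, Vit and Sostdc1 had SDs of 0.37, 0.34 and 0.34, and Amigo2 had 0.17, below the 0.21 that was the median on MOE430B.

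Pcp4, Necab2 and Rgs14 rose and fell together. Over the 11 mice on both array types, with genotype means subtracted, all 21 pairs of genes were compared by exact permutation within genotype (86400 permutations, two-sided), with Benjamini-Hochberg adjustment over the 21 pairs. The permutations moved values across array sets, so that these p-values take no account of the sets. Pcp4 and Necab2 correlated with r = 0.85 (exact permutation p = 0.000961, adjusted p = 0.00403) and rho = 0.85 (p = 0.00288, adjusted p = 0.0151), and r was 0.92 without the 2 mice farthest from the median. Rgs14 and Necab2 correlated with r = 0.84 (exact permutation p = 0.000266, adjusted p = 0.00280) and rho = 0.85 (p = 0.00209, adjusted p = 0.0151), and r was 0.60 without the 2 farthest mice. For Rgs14 and Pcp4, r was 0.73 (exact permutation p = 0.000845, adjusted p = 0.00403) and rho 0.76 (p = 0.00593, adjusted p = 0.0249). The last relation rested in part on single mice, since r was 0.45 without the 2 farthest mice and 0.55 without mouse tg271.

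Values within array sets are given without a test. With the array set means subtracted as well, r was 0.62 for Pcp4 and Necab2, 0.90 for Rgs14 and Necab2 and 0.66 for Rgs14 and Pcp4. In the 6 mice of the middle array set alone, r was 0.86, 0.88 and 0.88. The low and high array sets hold 3 and 2 mice, too few for a value.

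The RefSeq windows of 250 bases upstream of Necab2 (chr8:119446469-119446718, plus strand) and Pcp4 (chr16:96467356-96467605, plus strand), on GRCm38.p6, are shown because this pair had the highest r. Capitals again mark E boxes.
Necab2: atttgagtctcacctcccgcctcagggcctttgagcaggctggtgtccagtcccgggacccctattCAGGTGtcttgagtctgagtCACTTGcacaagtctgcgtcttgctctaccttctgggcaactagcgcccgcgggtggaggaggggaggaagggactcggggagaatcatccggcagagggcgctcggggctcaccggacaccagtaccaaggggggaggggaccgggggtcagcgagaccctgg
Pcp4: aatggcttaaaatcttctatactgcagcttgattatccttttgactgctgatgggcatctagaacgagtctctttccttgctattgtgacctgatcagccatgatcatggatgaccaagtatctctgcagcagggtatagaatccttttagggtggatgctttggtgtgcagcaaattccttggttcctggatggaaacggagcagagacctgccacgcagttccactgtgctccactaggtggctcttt
Necab2 holds 2 E boxes and Pcp4 none, so that the pair shared no E box in these windows. The GC content was 64% and 46.8%. Neither window holds a GC box, the CRE core TGACG (17.8% of all windows), the steroid receptor motif AGAACA (16.1%) or the TATA box TATAAA (12.4%), on either strand. The window of Amigo2 had a GC content of 84%, with 4 GC boxes and no E box. Windows were read for 4 of the 7 genes, and Rgs14, Vit and Sostdc1 were not analysed here.

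By its brighter probe set, Amigo2 ran against the same 3 genes. Its r was -0.79 with Pcp4 (exact permutation p = 0.000104, adjusted p = 0.00219; rho = -0.92, p = 0.000440, adjusted p = 0.00924), and r was -0.79 without the 2 farthest mice. With Necab2 it was -0.79 (exact permutation p = 0.000405, adjusted p = 0.00284; rho = -0.86, p = 0.00245, adjusted p = 0.0151), and -0.85 without the 2 farthest mice. With Rgs14 it was -0.83 (exact permutation p = 0.00661, adjusted p = 0.0231), but rho, at -0.71, did not pass the adjustment (p = 0.0172, adjusted p = 0.0603), and r was -0.54 without the 2 farthest mice. With array set means subtracted as well, r was -0.71, -0.55 and -0.65, and in the middle array set -0.97, -0.95 and -0.93. The other Amigo2 probe set, 1434601_at, did not show this with genotype means alone subtracted. Its r was -0.01 with Pcp4, -0.08 with Necab2 and -0.19 with Rgs14. With array set means subtracted as well, its r was also negative, at -0.81, -0.48 and -0.54. The 2 probe sets had r of 0.28 with each other, and of 0.56 with array set means subtracted. The brighter one varied little and may bind more than 1 transcript.

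No pair with Cacng5, Vit or Sostdc1 passed the adjustment. These 15 pairs had adjusted p-values of 0.174 to 0.995 by exact permutation with Benjamini-Hochberg adjustment. Cacng5, the gene with separate genotypes, had r of 0.37 with Pcp4, 0.24 with Necab2, 0.23 with Rgs14 and 0.00 with Amigo2. These values rested on mouse tg271, without which they were 0.64, 0.48, 0.57 and -0.57. With all 11 mice and array set means subtracted as well, they were -0.004, -0.09, 0.10 and 0.33. With genotype means alone subtracted, the other probe sets of Cacng5 and Sostdc1 had r of -0.04 and 0.31 with the ones used here. The pattern between mice thus differed between probe sets of these genes as well. By the other one, Sostdc1 had r of 0.78 with Rgs14, 0.73 with Necab2 and 0.65 with Pcp4, and Cacng5 had -0.75, -0.58 and -0.24. With array set means subtracted as well, these were 0.62, 0.41 and 0.23 for Sostdc1, and -0.46, -0.62 and -0.01 for Cacng5. The 15 pairs were tested by the probe sets that represent the genes, with genotype means alone subtracted. Among them the highest r were 0.69 for Pcp4 and Sostdc1 (adjusted p = 0.232) and 0.64 for Rgs14 and Vit (adjusted p = 0.174, exact permutation). Over all 21 pairs the median r was 0.29, with 14 above 0. It was 0.15, with 13 above 0, when array set means were subtracted as well.

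**Figure D4:**
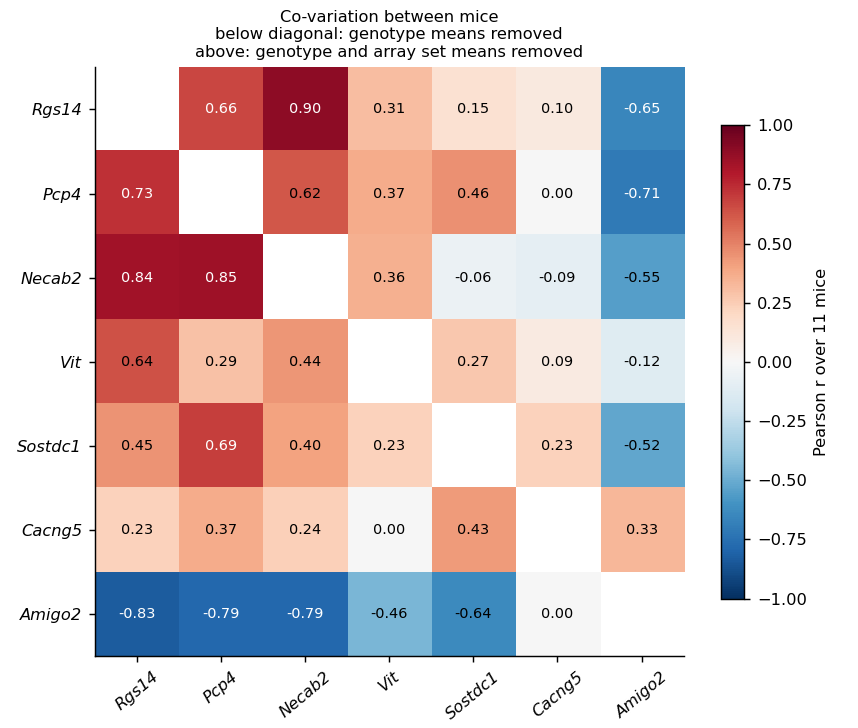
Pearson r between the 7 CA2 genes over 11 mice, below the diagonal with genotype means subtracted and above it with genotype and array set means subtracted, red for positive and blue for negative values. Rgs14, Pcp4 and Necab2 form a block of 0.73 to 0.85 below the diagonal, and the row of Amigo2, drawn from its brighter probe set, is negative or 0.00.

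**Figure D5:**
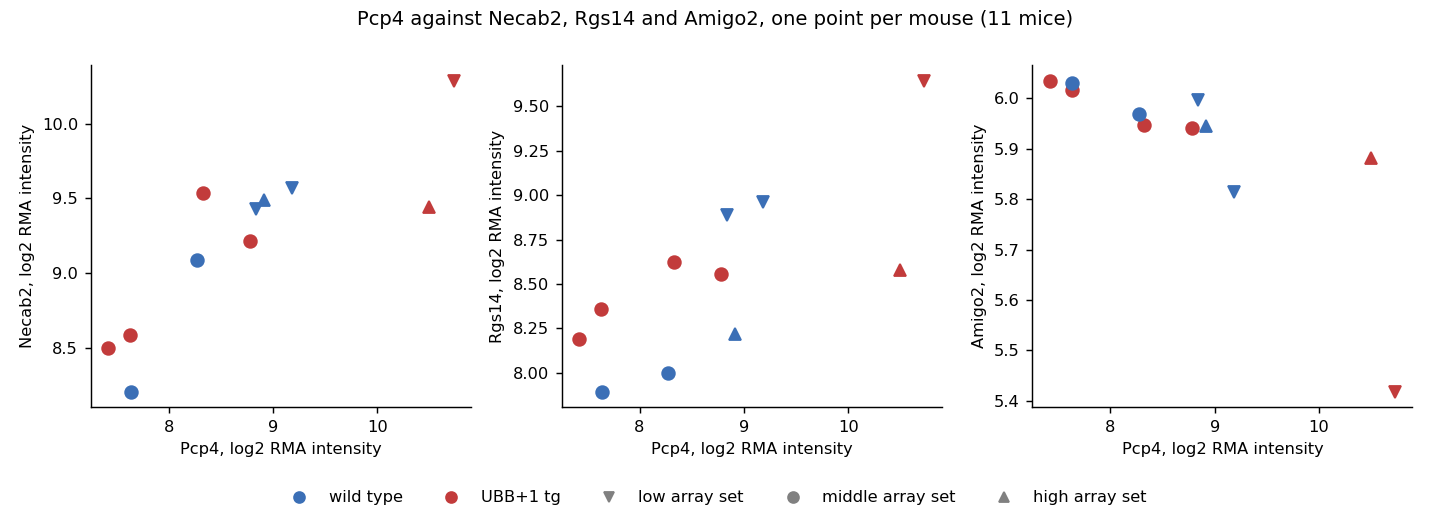
Log2 RMA intensity of Necab2, Rgs14 and Amigo2 (vertical axes) against that of Pcp4 (horizontal axes), 1 point for each of 11 mice, with colour for genotype and shape for array set. Necab2 and Rgs14 are higher and Amigo2 lower where Pcp4 is higher, and mouse tg271 is at the end of each panel.

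The same mice also differed across much of the array. The first principal component of the MOE430A genes, with genotype means subtracted, held 41.6% of the variance, and over all genes the median size of r with it was 0.45. Its r was 0.88 with Necab2, 0.86 with Rgs14 and 0.85 with Pcp4, values that 5.34%, 6.78% and 7.25% of genes matched or exceeded in size. It was 0.42 with Sostdc1, 0.37 with Cacng5, 0.25 with Vit and -0.72 with Amigo2. Among all 76774636 pairs of MOE430A genes, 0.647% had an r at or above that of Pcp4 and Necab2, 0.733% that of Rgs14 and Necab2, and 2.77% that of Rgs14 and Pcp4. With array set means subtracted as well, the shares were 5.84%, 0.181% and 4.28%. The part of the array-wide variation in the co-variation of these genes was not tested.

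Many marker lists moved with the 3 genes, given here as descriptions over 11 mice that share their libraries. Pcp4, Necab2 and Rgs14 had r of 0.95, 0.95 and 0.84 with the summed level of the other CA2 genes, and of 0.83, 0.91 and 0.85 with array set means subtracted as well. The sum leaves out Nr3c2, which is on MOE430B. Singly, the 6 genes differed. With Pcp4, r was 0.90 for Ptpn5, 0.88 for Oxtr, 0.59 for Acan, 0.35 for Nr3c2, 0.25 for Fgf2 and 0.14 for Avpr1b. With Rgs14 it ran from -0.27 for Nr3c2 to 0.88 for Ptpn5. Array set means subtracted as well, r with Pcp4 was, in the same order, 0.65, 0.74, 0.51, 0.81, 0.75 and 0.05. With Rgs14 it then ran from 0.41 for Acan to 0.70 for Oxtr, with Nr3c2 at 0.63. Returning to the 3 genes with genotype means alone subtracted, r with interneuron markers was 0.97, 0.88 and 0.83, and with CA3 markers it was -0.90, -0.76 and -0.60. With dentate granule cell markers it was -0.87, -0.95 and -0.86. With choroid plexus markers r was 0.81, 0.77 and 0.65, with meningeal and perivascular markers 0.82, 0.73 and 0.46, and with general neuron markers -0.81, -0.78 and -0.77. With array set means subtracted as well, it was 0.97, 0.68 and 0.64 for interneuron, -0.68, -0.54 and -0.68 for CA3, and -0.68, -0.86 and -0.81 for dentate markers. It was then 0.46, 0.49 and 0.63 for choroid plexus, 0.64, 0.67 and 0.74 for meningeal, and -0.21, -0.29 and -0.16 for neuron markers. In mice with higher Pcp4, Necab2 and Rgs14 levels, the summed levels of interneuron, choroid plexus and meningeal markers thus tended to be higher. Those of CA3 and dentate markers tended to be lower, and also those of neuron markers where array sets were not accounted for. The brightest genes of a list weigh most in its sum. Between genotypes the summed levels overlapped, at 11.7 to 12.8 in UBB+1 tg and 11.9 to 12.6 in wild-type mice for interneuron markers, and at 8.27 to 9.03 and 8.52 to 9.22 for dentate markers. None of the 9 interneuron genes, 1 of the 8 CA3 genes and 1 of the 8 dentate genes lay below the 25th percentile of its array. The part of these cell types in the co-variation was not tested.

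Sostdc1 had r of 0.62 with choroid plexus markers and 0.61 with Ttr, the transport protein transthyretin, and both were 0.34 with array set means subtracted as well. Amigo2 had r of -0.86 with choroid plexus markers and -0.87 with Ttr, and -0.93 and -0.90 with array set means subtracted. Cacng5 had r of 0.69 with meningeal and perivascular markers, and 0.59 with array set means subtracted. Vit had r of 0.00 with these, and 0.29 with array set means subtracted.

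The 3'-5' difference was compared with each gene over the mice of its array, with genotype means subtracted, as a family of 7 relations. None passed Benjamini-Hochberg adjustment. For Vit r was -0.72 (exact permutation p = 0.0336, adjusted p = 0.153) and rho -0.48 (p = 0.149), and for Rgs14 r was -0.67 (exact permutation p = 0.0437, adjusted p = 0.153) and rho -0.61 (p = 0.0862). Without the 2 farthest mice r was -0.57 and -0.36. The other genes had r between -0.27 and 0.33.

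The genes whose pattern was most like that of the 7 CA2 genes were found by their mean r with them over the 11 mice, with genotype and array set means subtracted. Fzd10os, a transcript opposite a frizzled receptor gene, had a mean r of 0.47. Arhgef11, the Rac regulator Chn2 (beta-chimaerin), the orphan receptor Gpr6 and the cell division regulator Racgap1 each had 0.45. All were positive with 6 of the 7 genes and negative with Amigo2, and their own log2 differences between the genotypes lay between -0.06 and 0.10. With genotype means alone subtracted, the mean r was 0.46 for Fzd10os and 0.48 for Arhgef11, but 0.22 for Chn2, 0.18 for Gpr6 and 0.08 for Racgap1.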

How the data were processed

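RNA of CA3 tissue, cut by laser, was hybridised to the 1-colour Affymetrix arrays MOE430A and MOE430B, whose number limits the precision. The authors deposited RMA values (background correction, quantile normalization and a summary for each probe set), as linear intensities in whole numbers on MOE430A and as log2 values on MOE430B. The RMA version is not given in the sources used here. MOE430A intensities were transformed to log2. The 64 control probe sets of each array were left out, and so was the 1 that reads the transgene promoter, following the study's methods. Groups and animal numbers came from the sample labels.

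Differences and standard errors were fitted with limma 3.58.1 (lmFit, eBayes) under R 4.3.3, tested on simulated data, with a false discovery rate of 10% (Benjamini-Hochberg) within each array type. The ChipInspector analysis of single probes named in the methods was not run on summarised values. A gene was represented by the brightest probe set annotated to it alone, on MOE430A where it had one there. For co-variation, genotype means were subtracted and exact permutations were made within genotype but not within array set. The labels give no litter, sex or section for a mouse, and p-values measure only the spread between these mice.

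The members and lists were chosen with earlier results of these data known. Named genes are the members, the measured genes of a list of other CA2 genes, up to 2 genes with the largest difference from each further list, Ttr, and the 5 genes most alike in pattern. In addition, 4 CA3 markers were named for their level and Snap25 for its blocked difference, after their values were seen. Array sets were found by complete linkage, with 1 minus Pearson r between arrays as distance, and their number was fixed at 3. Alternatives were other normalizations, array set or 3'-5' difference in the fit, array weights, a floor at the 25th percentile, all probe sets of a gene, and leaving out each animal or, chosen after seeing the data, the high array set, and the other probe set of a gene in the correlations.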

Additional observations from a re-analysis of the deposited data

Results flagged for a closer look

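Rgs14 was highest in mouse tg271, at 9.64 on the log2 scale, while the other UBB+1 tg mice lay between 8.19 and 8.62. The gap between this mouse and its nearest neighbour was 0.703 of the range of the group, above the critical value of Dixon's test for 6 samples. Amigo2 was lowest in the same mouse, at 5.42 by probe set 1447769_x_at, while the other UBB+1 tg mice lay between 5.88 and 6.03. Here the gap was 0.751 of the range. In all, 20 groups of values were examined in this way, and chance marks about 1 in 20. mouse tg271 was the only UBB+1 tg mouse of the low array set.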

How the results depend on the processing

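The median log2 difference of the 7 CA2 genes stayed above 0 in every setting run, but its size did not hold. It was 0.33 with all mice, ran from 0.07 without mouse tg271 to 0.46 without mouse tg276 when 1 animal was left out, was 0.14 without mouse wt321, and was 0.02 with array weights, 0.52 when blocked by array set, 0.31 in the middle array set and 0.24 without the high array set. Between 4 genes (array weights) and 7 genes (middle array set, or all probe sets averaged) had a difference above 0, and 5 to 6 did when 1 animal was left out. Over 147 recomputed differences of single genes, 8 changed sign. They were Pcp4 without mouse tg271 (-0.04) and with array weights (-0.29), Necab2 without mouse tg271 (-0.10), without mouse wt321 (-0.14) and with array weights (-0.19), and Amigo2 without mouse tg271, in the middle array set and with all probe sets averaged (0.02, 0.02 and 0.01). The median r of the 21 pairs was 0.29, and ran from 0.10 without mouse tg271 to 0.37 without mouse wt289. The cause of these shifts was not tested. No probe set of MOE430A passed a false discovery rate of 10% in any limma setting in which calls were counted. Calls were not counted with array weights, arrays centred on their median, the floor, the middle array set alone or the high array set left out. On MOE430B the count was 1 when the 3'-5' difference entered as covariate, and 0 to 1 when 1 animal was left out, with the 1 call arising without mouse wt291. No paired analysis was possible because the genotypes share no animal numbers or litters in the labels. Dim probe sets limit Vit, whose mean level lay below the 25th percentile of its array.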
